A study of Danio rerio with 12 samples.

Results

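The genes described here are 8 genes of secreted factors or their subunits. They are amh, gsdf, the inhibin subunit genes inha, INHBB and both copies of INHBA, and both follistatin genes named FST. They were taken by symbol or Ensembl ID from a table of 33737 gene IDs, and all 8 passed the filter on low counts, which kept 19317 genes. Where the symbol table gives the same name to both copies of a zebrafish gene, the ID is printed with it. Which FST ID is fsta and which is fstb was not determined. The symbol table lists INHBB under another ID too, which is not among the counted IDs. Levels are not compared between genes, since gene lengths were not used here. RNA was sequenced from testis tissue of adult wild-type zebrafish after an incubation of 48 h. The control group of 6 libraries had trilostane, a blocker of steroid hormone synthesis, and the Fsh group of 6 libraries had trilostane together with Fsh, the pituitary follicle-stimulating hormone. The submitters describe the 6 libraries of each group as biological replicates. All tissue had trilostane, so the comparison asks what differs with Fsh while steroid production is inhibited.

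All of these genes belong to, or act on, the transforming growth factor beta family. Amh, the anti-Müllerian hormone, comes from Sertoli cells and in zebrafish restrains spermatogonial differentiation and gonadotropin-stimulated androgen production. Gsdf, gonadal soma derived factor, is a fish member of the family made next to the germ cells. Inhibins pair an alpha subunit with a beta subunit and oppose activins, which are pairs of beta subunits, while follistatin binds activins and keeps them from their receptors.

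The libraries held between 4695095 and 11497588 counts. A Sertoli cell marker list without any of the 8 genes was present in every library, at a summed level of 1705 to 1962 CPM, the share of a library's counts scaled up to a common total with TMM factors, in controls and 1566 to 2140 CPM with Fsh, so the groups overlapped and no marker was at 0. Of its 15 tested members 2 rose, none fell and 6 had an unadjusted p under 0.05 in edgeR. Their median log2 fold change was −0.01, against 0.00 over all tested genes. Of those 19317 genes 1.63% were called in either direction and 3359 had such a p. Of 9 tested Leydig cell markers 2 rose and 7 had an unadjusted p under 0.05 in edgeR, with a median log2 fold change of 0.80, and the list summed to 105 to 329 CPM in controls and 337 to 744 CPM with Fsh. Of 15 tested leukocyte markers 1 fell and 5 had an unadjusted p under 0.05 in edgeR, with a median log2 fold change of −0.42 and 2 above 0. The list summed to 199 to 461 CPM and 128 to 415 CPM, and germ cell markers, of which 0 of 12 were called, to 3599 to 4954 CPM and 3038 to 4576 CPM, in the same order. The part of the Leydig cell difference in the results below was not tested, and fits with the leukocyte, Sertoli cell and germ cell markers as covariates are given with the calls. In whole tissue, more cells of a type and more RNA per cell cannot be told apart.

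The Sertoli cell factor gsdf rose with Fsh, and amh had a higher mean that did not pass the test. The level of gsdf (ENSDARG00000075301) ran from 3.58 CPM over a median of 12.0 to 41.1 CPM in the 6 controls, and from 40.5 over 131 to 186 CPM in the 6 Fsh libraries. The groups met at a single point: Fsh library 1 lay at 40.5 CPM, just under control library 2 at 41.1 CPM, and the other 5 Fsh libraries lay above every control. The log2 fold change was 2.72 ± 0.60 SE (n = 6 per group, edgeR quasi-likelihood test, adjusted p = 0.0418), which is 6.60-fold. The controls were themselves uneven, with 3.58 to 5.28 CPM in libraries 3, 4 and 5 and 18.8 to 41.1 CPM in libraries 1, 2 and 6.

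The level of amh (ENSDARG00000014357) ran from 2.56 CPM over a median of 32.7 to 62.4 CPM in the controls and from 37.9 over 124 to 153 CPM with Fsh. Fsh library 1 was again the low one, inside the control range, and the other 5 Fsh libraries lay between 114 and 153 CPM, above every control. Control library 3 had 20 reads of amh, and the other controls had between 210 and 429. The log2 fold change was 1.85 ± 0.49 SE (edgeR, adjusted p = 0.0728), with a 95% interval from 0.81 to 2.90. The call turned on single libraries: amh passed without Fsh library 1 (adjusted p = 0.0371) or without control library 3 (adjusted p = 0.0381), and DESeq2 called it with all 12 libraries (adjusted p = 0.0266).

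**Figure D1:**
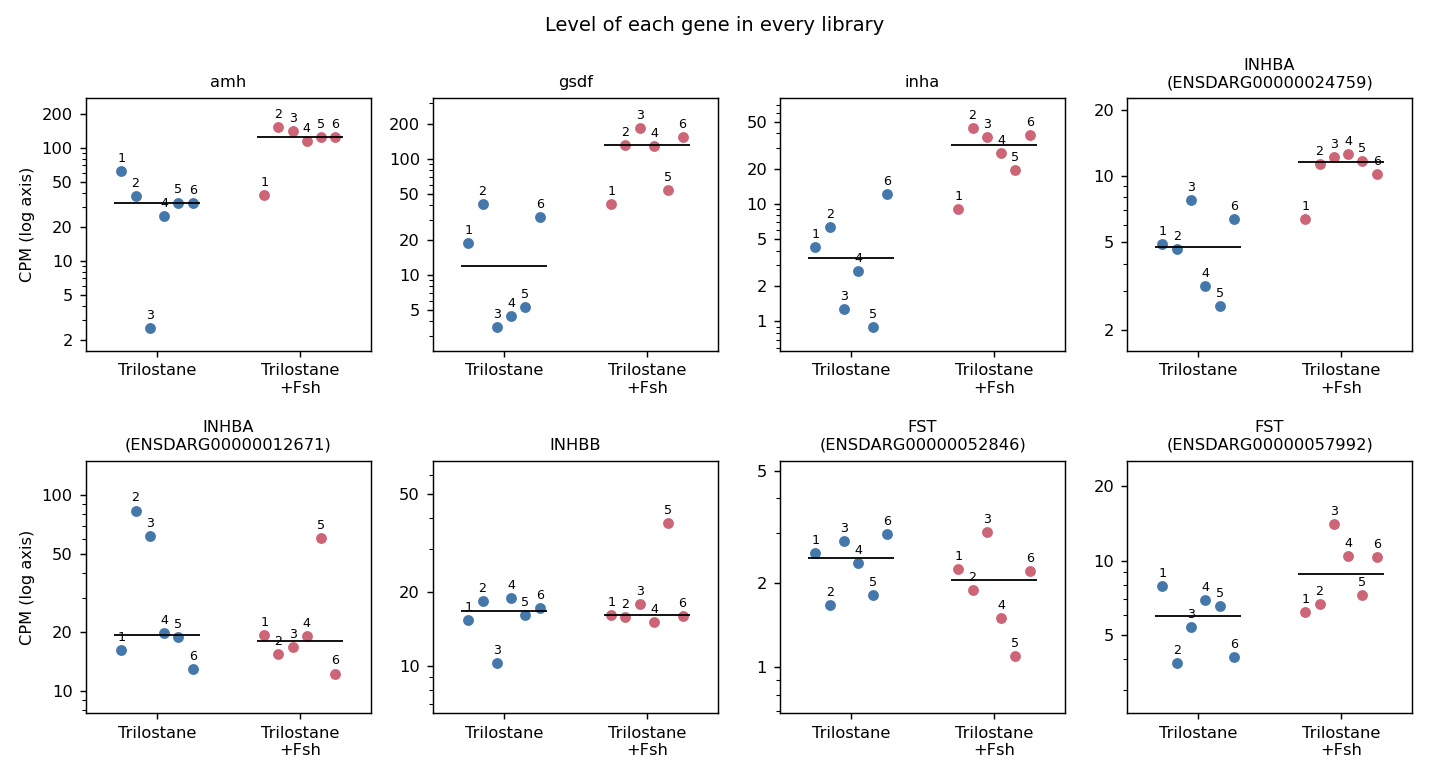
Level of each of the 8 genes in every library, in TMM-scaled CPM on a log axis, with points numbered by replicate and a line at the median of the group. For amh, gsdf, inha and INHBA (ENSDARG00000024759) the lowest Fsh point is Fsh library 1, and the other 5 Fsh points lie above all 6 controls.

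The inhibin alpha subunit gene inha and a single beta A copy rose, while the other beta subunit genes did not pass. The level of inha (ENSDARG00000052433) ran from 0.902 CPM over a median of 3.49 to 12.2 CPM in controls and from 9.05 over 32.0 to 44.4 CPM with Fsh. In reads, this was 235 over the 6 controls and 1537 over the 6 Fsh libraries, so the controls are the less precise side. Control library 6 at 12.2 CPM was the control above an Fsh library, which was Fsh library 1 at 9.05 CPM. The log2 fold change was 2.64 ± 0.54 SE (edgeR, adjusted p = 0.0318), or 6.24-fold.

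INHBA (ENSDARG00000024759), a beta A subunit, ran from 2.58 CPM over a median of 4.78 to 7.80 CPM in controls and from 6.38 over 11.5 to 12.5 CPM with Fsh. The overlap came from Fsh library 1, below control library 3. It rose by 1.12 ± 0.26 SE on the log2 scale (edgeR, adjusted p = 0.0453), or 2.18-fold, on 237 and 579 reads in all. The other copy, INHBA (ENSDARG00000012671), ran from 12.9 CPM over 19.3 to 83.7 CPM in controls and from 12.3 over 17.9 to 60.3 CPM with Fsh. Its high libraries were control 2, control 3 and Fsh 5, the rest lay between 12.3 and 19.7 CPM in both groups, and its log2 fold change was −0.58 ± 0.51 SE (edgeR, adjusted p = 0.603). That value rests on those libraries, at −0.14 without control 2, −0.35 without control 3 and −1.11 without Fsh 5. INHBB (ENSDARG00000040777), the beta B subunit, ran from 10.2 over 16.7 to 18.9 CPM and from 15.1 over 16.1 to 38.1 CPM. Apart from Fsh library 5 at 38.1 CPM its Fsh levels, 15.1 to 17.8 CPM, lay inside the control range, and its log2 fold change was 0.31 ± 0.24 SE (edgeR, adjusted p = 0.544). Its 95% interval ran from −0.20 to 0.82.

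Neither follistatin gene passed. FST (ENSDARG00000057992) ran from 3.85 CPM over a median of 5.97 to 7.91 CPM in controls and from 6.21 over 8.82 to 14.1 CPM with Fsh, so 3 of 6 Fsh libraries lay above every control. Its log2 fold change was 0.68 ± 0.24 SE (edgeR, unadjusted p = 0.0145, adjusted p = 0.169). FST (ENSDARG00000052846) was the least sampled of the 8 genes, with 112 reads over the controls and 111 over the Fsh libraries. Its levels, 1.66 to 2.99 CPM and 1.10 to 3.03 CPM, overlapped throughout, with a log2 fold change of −0.23 ± 0.26 SE (edgeR, adjusted p = 0.693).

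**Figure D2:**
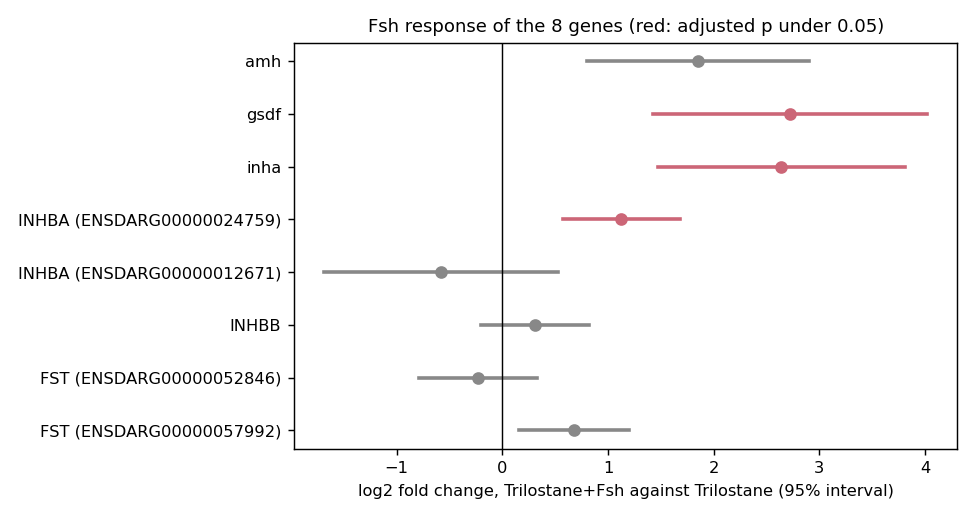
Log2 fold change of each gene, Trilostane+Fsh against Trilostane, from edgeR with its 95% interval (6 libraries per group). The genes in red, gsdf, inha and INHBA (ENSDARG00000024759), have an adjusted p under 0.05, and the grey interval of amh (0.81 to 2.90) lies above 0 without passing after adjustment.

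In all, 3 of the 8 genes rose and none fell, where 0.865% of all 19317 tested genes rose and 1.63% changed in either direction (edgeR, adjusted p under 0.05). The median log2 fold change of the 8 was 0.90, and 0.00 over all tested genes. None of the 8 had levels that did not overlap between the groups, where 1.11% of tested genes lay higher without overlap. Without Fsh library 1, a comparison chosen after seeing the data, 4 of the 8 no longer overlapped (amh, gsdf, inha and INHBA (ENSDARG00000024759)), against 1.84% of tested genes. Fsh library 1 was the lowest Fsh library in each of these 4, so shares without it are not a like comparison. Fsh library 1 was low beyond these genes: of the 167 genes that rose, it had the lowest of the 6 Fsh levels in 90. Without it 4 of the 8 genes were called higher, amh among them, against 1.17% of the genes tested in that fit.

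The 3 calls stood near the threshold. The calls of gsdf and inha were lost without control library 1, 3, 4 or 5 or without Fsh library 2, 3, 4 or 6, at adjusted p values of 0.0619 to 0.0977 for gsdf and 0.0528 to 0.0769 for inha (edgeR). INHBA (ENSDARG00000024759) lost its call without control library 1, 2, 4 or 5 or Fsh library 2, 3, 4 or 6, at 0.0761 to 0.102. The size of the differences changed less: leaving out any library gave log2 fold changes of 2.51 to 3.20 for gsdf, 2.43 to 3.20 for inha and 0.98 to 1.31 for INHBA (ENSDARG00000024759).

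With the mean of the leukocyte markers as a covariate, the log2 fold changes were 2.56 for gsdf, 2.34 for inha and 1.10 for INHBA (ENSDARG00000024759), and none passed (edgeR, adjusted p = 0.118, 0.0732 and 0.0891). With the mean of the Sertoli cell markers they were 2.69, 2.61 and 0.95, in the same order, and none passed either (adjusted p = 0.110, 0.0810 and 0.140). That list holds igf3 and GJA1, which rose with Fsh. Without these, a fit added after seeing the data, the values were 2.67, 2.60 and 1.21 (adjusted p = 0.0702, 0.0635 and 0.0598). With the germ cell markers as covariate inha and INHBA (ENSDARG00000024759) passed, at adjusted p = 0.0459 and 0.0317, and gsdf did not, at 2.89 and adjusted p = 0.0637.

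Whether the genes responded unequally was tested on ratios within each library, where the scaling and the unknown gene length cancel from the difference between groups. The log2 ratio of inha to a beta subunit gene was higher with Fsh for all 3 beta subunit genes described here. All 3 ratios share inha, which rose by 2.64 by itself, so they are not separate tests of that rise. Against INHBB it went from −2.19 ± 1.18 to 0.47 ± 1.08 (SD, n = 6 each), a difference of 2.66 ± 0.65 SE (p = 0.00649 by an exact two-sided permutation test, adjusted over 7 ratios to 0.0202). Against INHBA (ENSDARG00000012671) the difference was 3.32 ± 0.94 SE, and against INHBA (ENSDARG00000024759), which itself rose, it was 1.75 ± 0.56 SE (exact permutation test, both p = 0.00866, adjusted p = 0.0202). INHBA (ENSDARG00000012671) was itself high in control 2, control 3 and Fsh 5. The difference against it was 3.18 without control 2, 2.84 without control 3 and 3.71 without Fsh 5. That ratio was not tested with the leukocyte markers as covariate. In each of the 3 inha ratios the mean of the controls was below all 6 Fsh libraries, and 4 of 6 were above the highest control. The ratios were chosen with earlier results of these genes known.

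The ratio between the 2 INHBA copies was higher with Fsh. The log2 ratio of ENSDARG00000024759 to ENSDARG00000012671 went from −2.51 ± 1.08 to −0.94 ± 0.83 (SD, n = 6 each), a difference of 1.57 ± 0.55 SE (exact permutation test, p = 0.0216, adjusted p = 0.0379). The call was lost when control 2, 3, 4 or 5 or Fsh 2, 3, 4 or 6 was left out (adjusted p = 0.0682 to 0.0795), at differences of 1.25 to 1.56. With the leukocyte markers as covariate the log2 fold changes of these copies were 1.10 and 0.32, closer together than 1.12 and −0.58 without it, and the ratio itself was not tested with that covariate. The handling of reads that match both copies is unknown here.

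Among amh, gsdf and inha no difference in response was detected, which does not show that they respond alike. The log2 ratio of inha to gsdf had a control mean of −1.73 ± 0.73 and an Fsh mean of −1.95 ± 0.36 (SD, n = 6 each), a difference of −0.23 ± 0.33 SE (exact permutation test, p = 0.519, adjusted p = 0.519). The ratio of amh to gsdf differed by −0.97 ± 0.61 SE and that of amh to inha by −0.74 ± 0.62 SE (exact permutation test, adjusted p = 0.182 and 0.321). The amh to inha ratio spread from 0.89 to 4.86 over the controls and from 1.66 to 2.66 over the Fsh libraries. The low end of the controls was library 3, with 10 reads of inha and 20 of amh. The high end was control library 5, with 7 reads of inha. Counting error adds to the wider spread of the controls, and its part was not tested.

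**Figure D3:**
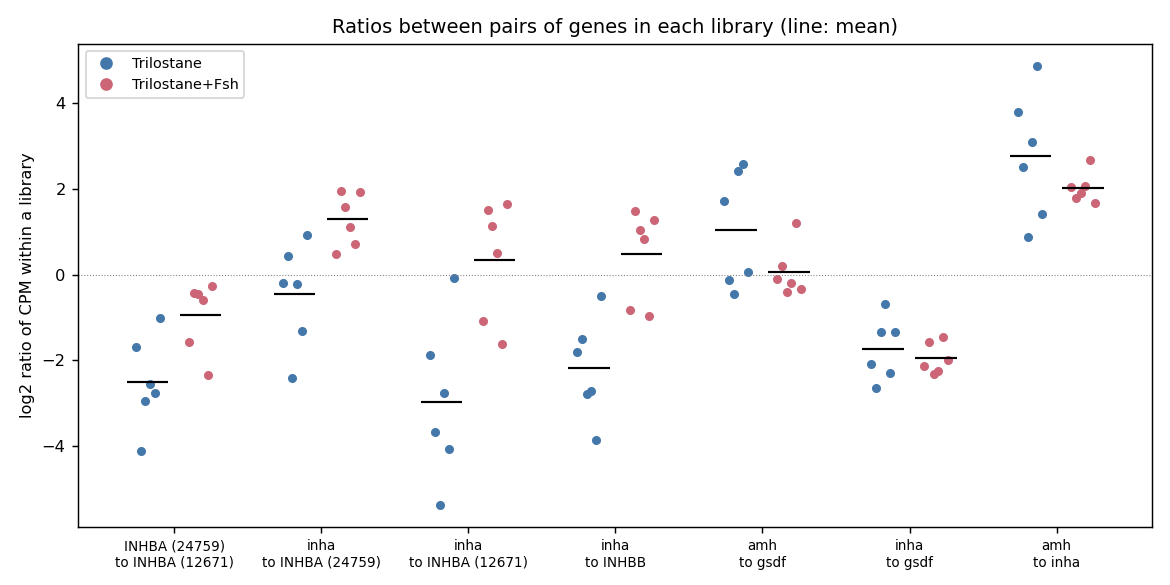
Log2 ratio of CPM between pairs of genes in each library, with the group mean as a line; INHBA copies are marked by the last 5 digits of their ID. The 3 ratios of inha to beta subunit genes are higher with Fsh, by 1.75 to 3.32 on the log2 scale, with 4 of 6 Fsh points above every control in each. The groups overlap in all 7 ratios.

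The spread between controls was large for these genes. The SD of log2 CPM over the 6 controls was 1.57 for amh, 1.51 for gsdf and 1.30 for inha, larger than for 98.1 to 98.8% of all tested genes. With Fsh the SDs were 0.74, 0.89 and 0.85, at percentiles 92.7 to 95.4. INHBB and FST (ENSDARG00000052846) were near the middle in controls, with SDs of 0.32 and 0.31 (percentiles 52.5 and 51.4). The percentiles are over tested genes of every level, not matched to these genes. For amh, control library 3 stood at 2.56 CPM and the other controls at 24.6 to 62.4 CPM. Control library 3, the lowest of the controls for amh and gsdf, also had the highest summed level of fat and liver markers, 2718 CPM against 161 to 731 CPM in the other controls. Fsh library 6 had 1520 CPM of them and was not low in amh, gsdf or inha. The part of this tissue in the low values of control library 3 was not tested.

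Correlations were taken within each group, so that the difference between the groups adds nothing to them. Over the 6 Fsh libraries log2 CPM of gsdf and inha correlated at Pearson's r = 0.92 (Spearman's rho = 0.77) and of amh and inha at r = 0.91 (rho = 0.89). The exact permutation p was 0.0139 and 0.0153 for r and 0.103 and 0.0333 for rho. None passed over the 56 relations tested (adjusted p = 0.428 for both r, 0.719 for both rho). The smallest p that all pairings allow is 0.00139, so no relation on its own could pass after adjustment over 56. Over the 6 controls gsdf and inha gave r = 0.88 and rho = 0.77 (exact permutation p = 0.0361 and 0.103, adjusted p = 0.622 and 0.719). The remaining pairs among the 3 genes gave r between 0.48 and 0.75. Without the 2 libraries farthest from the median of the first gene, r fell to 0.23 and 0.43 in the Fsh group, where both relations rest on those libraries, Fsh 1 among them, and was 0.73 in the controls.

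**Figure D4:**
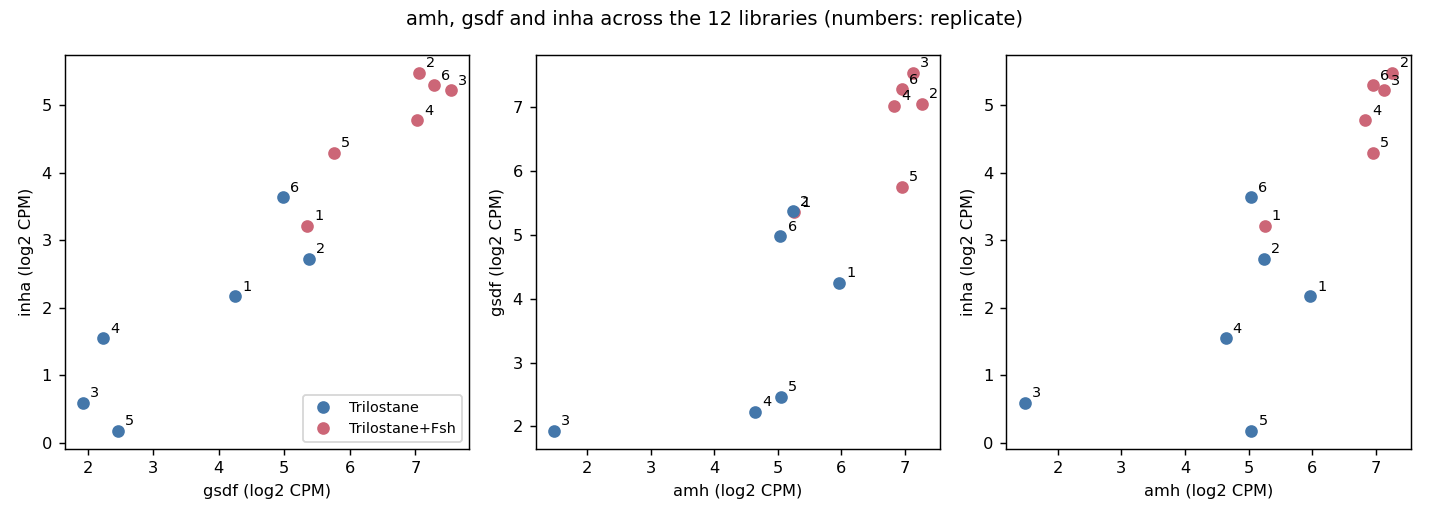
Log2 CPM of inha against gsdf, gsdf against amh and inha against amh, with each point a library numbered by replicate. Fsh library 1 lies among the higher controls in all 3 panels, and control library 3 lies at the low end of gsdf and amh.

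The genes with the most similar pattern were sought after the group means were subtracted. This removes the mean difference with Fsh, but not an unequal response between the Fsh libraries. Over 12 libraries the 10 closest to amh, gsdf and inha, out of 19302 genes with a mean of at least 1 CPM, had a mean Pearson's r of 0.81 to 0.84 with the 3 genes, and 19 genes exceeded 0.8. The closest was KANK2, an adaptor protein at integrin adhesions (mean r = 0.84). Among the other named genes were LOXL2, a collagen cross-linking oxidase, ADAMTS15 (ENSDARG00000029124), a matrix metalloprotease, DHX37, an RNA helicase of ribosome assembly, NAT10, an RNA acetyltransferase, BZW2, a translation regulator, and si:ch211-14c7.2. The remaining 3 IDs have no symbol. Which genes were closest depended on single libraries, since 1 to 7 of the 10 recurred when a library was left out, with 1 recurring without Fsh library 1.

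Of these 10 genes 2 rose with Fsh, where 0.865% of all tested genes rose. The 10 were picked by a pattern that keeps an unequal response between Fsh libraries, so these shares are not a like comparison. KANK2 averaged 56.3 CPM in controls and 102 CPM with Fsh, a log2 fold change of 0.85 ± 0.14 SE (edgeR, adjusted p = 0.00819). BZW2 averaged 5.51 and 12.5 CPM (1.18 ± 0.20 SE, adjusted p = 0.0125). ADAMTS15 (ENSDARG00000029124) at 0.70 ± 0.18 SE and LOXL2 at 0.52 ± 0.20 SE did not pass (edgeR, adjusted p = 0.0676 and 0.190), though ADAMTS15 did without control library 6 (0.0385), and the rest had log2 fold changes from −0.34 to 0.21.

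INHBA (ENSDARG00000012671) followed another pattern. Its 3 high libraries, control 2 at 83.7 CPM, control 3 at 62.0 CPM and Fsh 5 at 60.3 CPM, were also the 3 with the highest summed leukocyte markers, at 461, 451 and 415 CPM. The other 9 libraries had 128 to 342 CPM of leukocyte markers. The same 3 libraries had the highest summed level of 9 Smad response genes, at 465, 482 and 406 CPM, against 197 to 309 CPM in the others. With the leukocyte markers as covariate the log2 fold change of this copy turned from −0.58 to 0.32 (edgeR, adjusted p = 0.603 and 0.680, so neither passed). With the germ cell markers it was −0.07 (adjusted p = 0.942). Over the 12 libraries, with group means subtracted, log2 CPM of this copy correlated most strongly with the mean of the Smad response genes, at r = 0.90. It correlated with leukocyte markers at 0.82, endothelium markers at 0.69, smooth muscle and fibroblast markers at 0.67 and type I receptors at 0.64. Negative values were found for other activin branch ligands (−0.80), germ cell markers (−0.76) and ovary and oocyte markers (−0.67). These list means share libraries and depth with the gene, and the part of each list or cell type was not tested. Its closest genes over 12 libraries, with group means subtracted, were MYOF (ENSDARG00000017128), a membrane repair protein, RASA2, a Ras GTPase-activating protein, tpte, MMP14 (ENSDARG00000008388), a membrane metalloproteinase, and an ID without a symbol, at r = 0.95 to 0.97. None of these 5 passed the Fsh test. For this copy 718 genes exceeded r = 0.8, and these r were not repeated with a library left out.

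**Figure D5:**
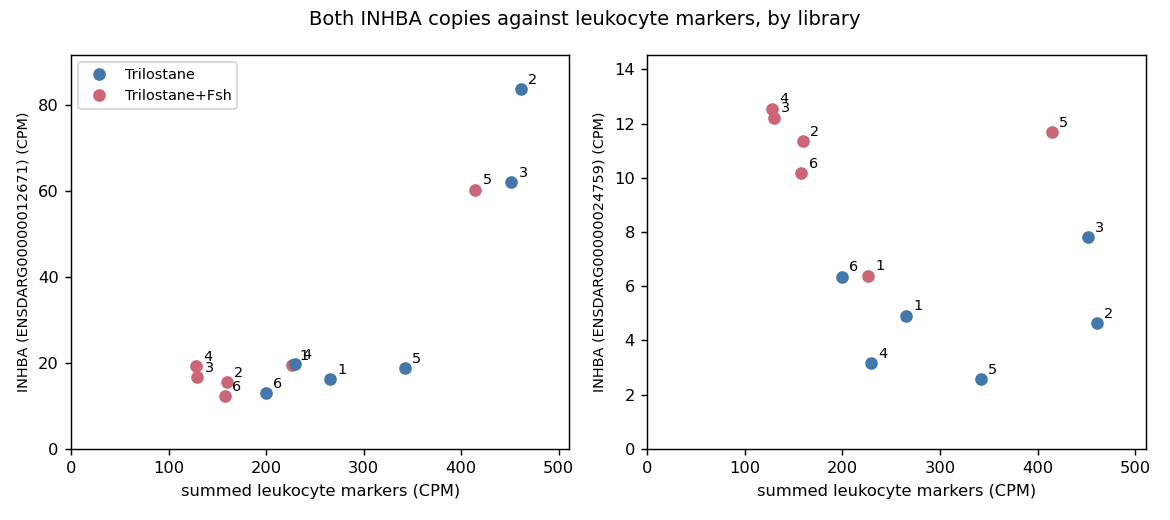
Level of each INHBA copy (CPM) against the summed level of leukocyte markers (CPM) in the same library, numbered by replicate. INHBA (ENSDARG00000012671), left, is at 60.3 to 83.7 CPM in the 3 libraries with the most leukocyte marker RNA and at 12.3 to 19.7 CPM elsewhere, while INHBA (ENSDARG00000024759), right, shows no such step.

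The genes closest to INHBB were TRAM2, a protein of the endoplasmic reticulum, VPS29, a retromer subunit, AGPAT4, an acyltransferase of lipid synthesis, gipc2 and MED1, a Mediator subunit. They had r = 0.90 to 0.95 over 12 libraries, with group means subtracted. Within the controls r was 0.71 for AGPAT4, 0.73 for gipc2 and 0.94 to 0.96 for TRAM2, VPS29 and MED1. Within the Fsh group, where INHBB was far highest in Fsh library 5, r was 0.91 to 0.99. These r were not repeated without that library. None of these genes passed the Fsh test, with log2 fold changes of 0.02 to 0.25, and 145 genes exceeded r = 0.8. The high value of INHBB in Fsh library 5 coincided with the highest endothelium marker sum, 313 CPM against 112 to 218 CPM in the other libraries. That library also had the highest sums of Sertoli cell markers (2140 CPM), Smads (257 CPM) and secreted antagonists (404 CPM), and the lowest of germ cell markers (3038 CPM). By the mean of log2 CPM its Sertoli cell markers, at 5.17, were below those of Fsh library 4, at 5.45. Over 12 libraries, with group means subtracted, INHBB correlated with endothelium markers at r = 0.76 and with Smads at 0.71. For secreted antagonists r was 0.41, for Sertoli cell markers −0.07 and for germ cell markers −0.58. None of these r with marker lists was repeated without Fsh library 5, which was highest in both INHBB and endothelium markers. They may rest on that library. The part of any of these lists in the INHBB value was not tested.

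The tested receptors and intracellular relays of the transforming growth factor beta family did not pass the test in edgeR. No tested gene of 5 type I receptors (median log2 fold change 0.10), 6 type II receptors (−0.10), 2 co-receptors or 11 Smads (−0.03) was called. In edgeR 0, 0, 0 and 2 of them had an unadjusted p under 0.05, against 3359 of all 19317 tested genes. Of those 19317 genes edgeR called 1.63%. Of these lists DESeq2 called a single gene, SMAD4 (ENSDARG00000075226), and limma-voom 0. The activin type II receptor genes ACVR2A and ACVR2B stood at −0.06 ± 0.12 SE and −0.28 ± 0.19 SE, and the type I receptor gene ACVR1B (ENSDARG00000018968) at 0.11 ± 0.25 SE, all 3 named after their values were seen. Of the receptors, BMPR1A (0.14 ± 0.11 SE, adjusted p = 0.553) and TGFBR2 (ENSDARG00000034541) (0.33 ± 0.15 SE, adjusted p = 0.288) had the smallest p of their lists. Among the Smads, SMAD4 (ENSDARG00000075226), a copy of the shared partner Smad, averaged 13.2 ± 1.87 CPM in controls and 9.32 ± 1.41 CPM with Fsh without overlap, and did not pass (−0.50 ± 0.14 SE, edgeR, adjusted p = 0.0912).

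None of 9 Smad response genes, 6 secreted antagonists, 7 precursor proteases or 5 other ligands of the activin branch was called in edgeR. Of them 1, 1, 2 and 2 had an unadjusted p under 0.05. Over all 19317 tested genes 1.63% were called and 3359 had such a p, so lists this short can hold no call at that share. Of the genes in these lists DESeq2 called 1, lft1, and limma-voom 0. ID1, a target of the bone morphogenetic protein branch, averaged 71.3 ± 18.2 and 104 ± 22.9 CPM (0.54 ± 0.18 SE, adjusted p = 0.137). FSTL1 (ENSDARG00000039576), a follistatin-like secreted protein, averaged 176 ± 47.1 and 259 ± 81.8 CPM (0.55 ± 0.21 SE, adjusted p = 0.187). PCSK7, a proprotein convertase, stood at −0.36 ± 0.13 SE (adjusted p = 0.170), and the co-receptor gene tdgf1 at 0.36 ± 0.27 SE (adjusted p = 0.528). The Lefty gene lft1, an antagonist of Nodal signalling, averaged 9.0 ± 5.56 and 2.04 ± 1.64 CPM and did not pass (−2.09 ± 0.50 SE, edgeR, adjusted p = 0.0548). It passed without control library 2 or 6 or Fsh library 1 (adjusted p = 0.0431, 0.0394 and 0.0116). Its relative ndr1, a Nodal ligand named after its values were seen, stood at −0.92 ± 0.38 SE (adjusted p = 0.231).

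Among the marker genes, the Sertoli cell growth factor gene igf3 rose by 2.14 ± 0.34 SE on the log2 scale and GJA1, a gap junction connexin, by 0.95 ± 0.18 SE (edgeR, adjusted p = 0.00819 and 0.0196). FSHR, the receptor of Fsh, also named after its values were seen, stood at −0.11 ± 0.14 SE (adjusted p = 0.726). The Leydig cell genes insl3 (2.19 ± 0.37 SE) and HSD11B2 (2.90 ± 0.62 SE) rose without overlap between the groups (adjusted p = 0.0118 and 0.0358). The call of HSD11B2 was lost when any single one of control libraries 1, 2, 3, 4 and 5 or Fsh libraries 2, 3, 4 and 6 was left out (adjusted p up to 0.0847), and that of GJA1 without control library 5 (0.0574). The leukocyte marker gene cd4-1 fell by 0.97 (SE 0.21, edgeR, adjusted p = 0.0371). It lost its call without control library 2, 4 or 5 or Fsh library 2, 3, 4 or 6 (up to 0.0920). No germ cell, red blood cell, oocyte, fibroblast, endothelium, or fat and liver marker was called in edgeR, where 2, 0, 0, 2, 0 and 1 had an unadjusted p under 0.05. In the same order DESeq2 called 1, 0, 0, 1, 0 and 2, and limma-voom none. Over all 19317 tested genes edgeR called 1.63%, and 3359 had an unadjusted p under 0.05. The smallest p of these lists belonged to SPATA17 (−0.58), SLC4A1 (ENSDARG00000012881) (−0.31), ZAR1 (0.49), DCN (0.61), vwf (−0.39) and LPL (1.14), given as log2 fold changes.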

How the data were processed

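Each library has 1 deposited file of raw counts by Ensembl gene ID, which are whole numbers and carry no normalization. Genome build Zv9 and the tools STAR 2.3, HTSeq and CASAVA 1.8 are named per the submitters' processing notes. No source used here gives the annotation release, the strand setting or the treatment of reads matching more than a single gene, so copies of a gene and overlapping genes are uncertain. Coordinates, gene lengths and sequences were not used here. A symbol table named 21939 of 33737 IDs.

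Counts were analysed in R 4.3.3 with edgeR 4.0.16: filterByExpr by group, TMM, glmQLFit and glmQLFTest, no covariates, Benjamini-Hochberg adjustment over 19317 genes, called under 0.05. TMM factors ran from 0.891 to 1.05. The standard error in edgeR is the absolute log2 fold change divided by the square root of F. Log2 CPM used a prior count of 2. A count of 0 allows up to 3 counts, 0.259 to 0.641 CPM by library, for counting error only.

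Ratios were tested over all 924 arrangements, where the smallest p is 0.00216, and correlations over all 720 pairings (Python 3.11.15, scipy 1.17.1). Alternatives were DESeq2 1.42.0, limma-voom (limma 3.58.1), other scalings, filters, covariates, the replicate number and the omission of each library. Replicates differed by more than sampling noise (chi-square per degree of freedom 5.40 to 43.0). Procedures were tested on simulated data.

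The genes, lists, ratios and tests were chosen with earlier results of these data known. Of 194 entries in 17 lists, 158 matched a symbol. From each list up to 4 called genes were named, or the gene with the smallest p, and for similar patterns 10 genes for amh, gsdf and inha and 5 each for INHBA (ENSDARG00000012671) and INHBB.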

Additional observations from a re-analysis of the deposited data

Results flagged for a closer look

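Genes were examined in CPM and ratios on the log2 scale. Of 30 groups of 6 libraries examined for a library far from the rest (8 genes and 7 ratios in 2 groups), 3 had one. Chance gives about 1 in 20 where values are normally distributed. The genes were not examined in log2 CPM, so a low value such as amh in control library 3 (2.56 CPM) could go unflagged. The level of amh in Fsh library 1 was 37.9 CPM, below the next Fsh library at 114 CPM. INHBA (ENSDARG00000012671) stood at 60.3 CPM in Fsh library 5, above the next at 19.4 CPM. INHBB stood at 38.1 CPM in the same library, above the next at 17.8 CPM, and without that library its log2 fold change was 0.01 in place of 0.31.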

How the results depend on the processing

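With 315 genes called in edgeR, DESeq2 called 1087, all 315 among them, and the fits with a leukocyte, Sertoli cell or reduced Sertoli cell covariate called 196, 92 and 162. Of the 8 genes, 3 were called, and 0 in each of those 3 covariate fits. Leaving out a library gave 95 to 758 calls and 0 to 4 of the 8 genes. The filter of at least 1 count ended the call of INHBA (ENSDARG00000024759) (adjusted p = 0.0511) and a robust fit that of gsdf (0.0614). The other scalings and limma-voom kept all 3 calls. Among the 8 genes the direction turned in a single case, INHBA (ENSDARG00000012671), at 0.32 with the leukocyte covariate.

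Of the genes named for their pattern, RASA2, ENSDARG00000045971, tpte and MMP14 (ENSDARG00000008388) turned to 0.0880, 0.24, 0.41 and 0.23 with the leukocyte covariate. With the germ cell covariate tpte and MMP14 turned to 0.13 and 0.0137. With a library left out TRAM2 ran from −0.0581 to 0.0491, VPS29 from −0.11 to 0.11, AGPAT4 from −0.0627 to 0.12 and tpte from −0.54 to 0.0288. None of these passed in any direction.

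The labels give libraries of equal number no other link, and whether they were paired is unknown here. Deviations from the group means correlated between 0.02 and 0.26 over 6 pairs, all above 0. Of these libraries 3 controls and 2 Fsh libraries correlated best with their own number. With the replicate number as a block 381 genes were called, gsdf (adjusted p = 0.0433) and inha (0.0241) among them, and INHBA (ENSDARG00000024759) was not (0.0601). In an exact sign-flip test of those pairs, whose smallest p is 0.0313, the ratio differences of 1.57 between the INHBA copies and of 1.75, 3.32 and 2.66 for inha to the beta subunits had an adjusted p of 0.0547. Each of these ratios was at that smallest p, so a lower adjusted p was out of reach while the other ratios were above it. The ratio between the INHBA copies ran from 1.25 to 1.87 with a library left out, and the 3 inha ratios passed in all 12 cases. The 6 correlations among amh, gsdf and inha passed under none of 3 alternatives, where no relation on its own could pass the adjustment. The causes of these changes were not tested. Low counts limit inha in controls and both FST genes.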
